A study of Mus musculus with 22 samples.

Results

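The cytosolic ribosomal protein genes were taken as all genes whose platform symbol has the form Rpl or Rps followed by a number, with an optional letter, or is Rplp0, Rplp1 or Rplp2, leaving out the Rps6k kinases and every probe set annotated with more than 1 symbol. The rule itself reads no measured value, but the set was chosen with earlier results of these data known. The rule found 60 genes, 22 with 40S and 38 with 60S symbols, among 18704 genes with a single symbol. RefSeq gives 59 of them as protein coding and Rps4l as a transcribed pseudogene. They were measured by 209 of the 23492 probe sets of the array, a probe set being a group of probes summarised into 1 value. After low values were set aside, 55 of the 60 could be tested, among 9880 genes in all. A further 17 ribosomal protein symbols, among them Rpl3, Rpl11 and Rps24, occur in this table only on probe sets that carry several symbols and are not among the 60.

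Cytosolic ribosomal proteins assemble with ribosomal RNA in the nucleolus into a small 40S subunit, which decodes the messenger RNA, and a large 60S subunit, which joins the amino acids. Their messenger RNAs are among the most abundant in most cells and generally begin with a run of pyrimidines, the terminal oligopyrimidine tract, through which the mTOR pathway controls their translation more than their abundance. They are needed in nearly equal amounts relative to one another, and most of them are not markers of a cell type. Many of them have processed pseudogene copies in the mouse genome with near-identical sequence.

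RNA came from the hypothalamus of lean C57BL/6J mice, males aged 8 weeks that had eaten normal chow for 2 weeks. The mice received celastrol, a triterpenoid from the thunder god vine known for reducing food intake in obese mice, or its solvent DMSO by intraperitoneal injection. Celastrol groups had 4 mice at 6 h, 3 at 1 day and 3 at 4 days, and DMSO groups had 4 mice at each of these times. The labels give 250 ug/kg celastrol beside the 6 h time, a 100 ul volume in DMSO beside 1 and 4 days, and 25 ul DMSO per day, so the dose at the later times is not certain. No untreated group is used here, and the 6 groups were treated as independent mice because the labels call the samples biological replicates. The 22 arrays had median log2 values of 8.58 to 8.66 and correlated with their own group at 0.994 to 0.998 on average, and 0 pairs of arrays were near-identical. Of 15 hypothalamic neuron markers measured, 14 were bright enough to be tested and Crh was not. Tissue RNA cannot tell fewer cells of a type from less RNA per cell.

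Some promoter features were more frequent among these genes than among all genes, though none occurred in most of them. RefSeq gives promoters for 48 of the 60 genes, 57 in all, each reaching from 250 bases before to 50 bases after an annotated start on mouse build GRCm38.p6. A run of at least 8 C or T within 20 bases of the start was present in 36.8% of these 57, against 16% of all 32851 promoters in the same table. In 13 of the 57, or 22.8%, such a run covered the start base itself, against 3.86% of all promoters. The motif CCGGAAG, bound by ETS family factors, occurred on either strand in 33.3% of them, against 8.86% of all. The motif AAGATGGC of YY1 occurred in 5.26%, against 2.75%, and TATAAA at 20 to 40 bases before the start on the forward strand in 0 of 57, against 1.99%. These matches describe letters only. The windows below hold 40 bases before the start and 20 bases from it, 5′ to 3′ on the gene's strand, with runs of at least 8 C or T and CCGGAAG in capitals. Rpl28, Rps6 and Rps9 show the run over the start, Rpl26 shows the ETS motif, Rpl23, Rps3, Rps4x and Rpl10 are members described below without either in this window, and Rpl10l and Rpl39l are dim copies.
Rpl28 (chr7:4792925-4792984, plus strand): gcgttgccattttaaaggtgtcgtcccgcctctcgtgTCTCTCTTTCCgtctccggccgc
Rps6 (chr4:86857348-86857407, minus strand): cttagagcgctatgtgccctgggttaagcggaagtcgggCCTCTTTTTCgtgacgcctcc
Rps9 (chr7:3704001-3704060, plus strand): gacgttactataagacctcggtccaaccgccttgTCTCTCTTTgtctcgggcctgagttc
Rpl26 (chr11:68901526-68901585, plus strand): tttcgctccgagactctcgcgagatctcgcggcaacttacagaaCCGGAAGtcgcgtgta
Rpl23 (chr11:97782420-97782479, minus strand): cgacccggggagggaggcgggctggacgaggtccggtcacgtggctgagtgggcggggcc
Rps3 (chr7:99483690-99483749, minus strand): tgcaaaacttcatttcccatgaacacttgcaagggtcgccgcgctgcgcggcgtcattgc
Rps4x (chrX:102189372-102189431, minus strand): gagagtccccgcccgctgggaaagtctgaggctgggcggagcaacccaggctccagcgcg
Rpl10 (chrX:74270776-74270835, plus strand): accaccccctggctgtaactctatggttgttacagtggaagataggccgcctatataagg
Rpl10l (chr12:66284382-66284441, minus strand): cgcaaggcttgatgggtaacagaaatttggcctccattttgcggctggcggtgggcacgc
Rpl39l (chr16:10170188-10170247, plus strand): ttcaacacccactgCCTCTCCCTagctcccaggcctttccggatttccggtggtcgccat
The run of Rpl39l lies before the start, whereas those of Rpl28, Rps6 and Rps9 cover it. The annotated start can lie away from the start used in the hypothalamus, so the absence of a run in a window does not describe the messenger RNA.

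Most of the set was bright. Of its 209 probe sets, 199 were above their array's median in all 22 arrays. The 5 genes set aside were above the median in 0 arrays. They were Rpl3l, Rpl10l and Rpl39l, copies of Rpl3, Rpl10 and Rpl39 known for restricted expression in muscle or testis, and, less simply, the core genes Rplp2, of the acidic stalk, and Rpl12, of the stalk base. Rpl39l lay between 5.40 and 5.82 log2 units in all 22 arrays. Rpl10l lay between 6.75 and 7.45, and Rplp2 between 7.97 and 8.41. Probes differ in affinity, so these values order arrays and not genes, and the low Rplp2 and Rpl12 values say only that these single probe sets were dim. Just inside the limit, Rps3a1 was above the median in 5 arrays and Rpl32l in 9.

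The members were about as steady across mice as other genes. The spread between mice of one group, as residual SD, had a median of 0.083 log2 units over the 55 members and 0.076 over all tested genes. It was smallest for Rpl21, at 0.027, and largest for Rpl14, at 0.23. Rps19, a 40S protein whose human gene is mutated in Diamond-Blackfan anaemia, had 0.19 and Rpl38, a 60S protein needed for axial patterning in the mouse, had 0.18.

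Celastrol minus DMSO at 6 h gave no called member: 0 of 55 passed an adjusted p of 0.05 (limma with Benjamini-Hochberg adjustment over all 9880 genes), where 0% of all genes passed. At an unadjusted p under 0.05 there were 4 members, 7.27% against 5.11% of all genes, and the lowest adjusted p was 0.895. The median member difference was -0.00020 log2, against 0.020 over all genes, with 27 members above 0 (49.1%, against 65.4% of all genes). Groups did not overlap in 2 members, 3.64% against 2.76% of all genes. Rps3, a 40S protein that also takes part in DNA repair, measured 11.01, 11.05, 11.09 and 11.10 in celastrol mice, against 10.86, 10.97, 10.98 and 10.995 in DMSO mice. The groups did not overlap, by a narrow margin, yet the difference of 0.11 had an SE of 0.059 and an adjusted p of 0.895 in limma. Rpl10, a late-joining 60S protein, measured 13.52, 13.54, 13.55 and 13.52 in celastrol mice, against 13.55, 13.65, 13.66 and 13.61 in DMSO mice. Only the lowest DMSO array reached the celastrol range, and the difference was -0.08 with an adjusted p of 0.895. Rps4l, the transcribed pseudogene, was the single member above 0 with an unadjusted p under 0.05, at 0.13 with an adjusted p of 0.895. The widest difference was that of Rps19, at -0.24 with a 95% interval of -0.48 to -0.01, and its DMSO mice alone ran from 10.41 to 10.88.

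At 1 day, 0 of 55 members passed, where again 0% of all genes did, and 3 had an unadjusted p under 0.05, 5.45% against 6.66%. The members lay low as a set without any one passing: 44 of 55 were below 0 and the median was -0.044 log2, against -0.014 over all genes, of which 41.2% were above 0. The members' median was -0.029 after repeated quantile normalization and -0.022 without the 2 arrays least like their groups. The 40S members had a median of -0.055, with 20 of 22 below 0, and the 60S members -0.036, with 24 of 33 below 0. Groups did not overlap in 2 members, 3.64% against 6.17% of all genes. Rpl29, a 60S protein also known for binding heparin, lay above 0. It measured 11.41, 11.39 and 11.44 in celastrol mice, against 11.27, 11.31, 11.32 and 11.32 in DMSO mice. The groups did not overlap, and the difference of 0.11 (SE 0.046) had the lowest adjusted p among members, 0.713. Rps7, a 40S protein that binds the p53 regulator Mdm2, measured 11.66, 11.66 and 11.75 in celastrol mice, against 12.03, 11.69, 11.78 and 11.84 in DMSO mice. The ranges overlapped and its difference of -0.15 had an adjusted p of 0.72. Rps27l, a copy of Rps27 induced by p53, measured 9.72, 9.30 and 9.76 in celastrol mice, against 9.83, 9.73, 9.70 and 9.83 in DMSO mice, with 1 low celastrol array. With 3 against 4 mice the smallest two-sided p of an exact permutation test is 0.0571, so that test cannot pass 0.05 at 1 or 4 days.

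At 4 days the set lay on the other side of 0, again with 0 of 55 members called, where 0.0506% of all genes were. The median was 0.051 log2, against 0.0083 over all genes, and 42 of 55 members, 76.4%, were above 0, against 56.4% of all. The median was 0.031 without celastrol replicate 1 and 0.033 with each array centred on its median. The 5 members with an unadjusted p under 0.05 made 9.09%, against 3.66%. In 11 members the celastrol and DMSO mice did not overlap, 20% against 6.33% of all genes, with 10 higher and Rpl26 lower. Rpl23, a 60S protein that like Rps7 binds Mdm2, measured 11.81, 11.85 and 11.84 in celastrol mice, against 11.70, 11.65, 11.67 and 11.66 in DMSO mice. The groups stood well apart, and the difference of 0.16 (SE 0.050, 95% interval 0.06 to 0.27) had the lowest adjusted p among members, 0.741. Its second probe set gave the same difference to 2 decimals, 0.16. That probe set was near the array medians, with a mean of 8.67 against 11.82 for the kept one. At 6 h the kept probe set gave -0.014 and the second 0.074. Rps29, a 40S protein that binds zinc, lay between 10.92 and 11.01 in the 3 celastrol mice, against 10.81, 10.81, 10.83 and 10.81 in DMSO mice. The difference was 0.16 (SE 0.062) with an adjusted p of 1.00, and its 4 probe sets ran from 0.16 to 0.18. Rpl36, of the 60S subunit, measured 11.69 in each of the 3 celastrol mice, against 11.56, 11.53, 11.64 and 11.62 in DMSO mice, also without overlap and with an adjusted p of 1.00. Rpl26, a 60S protein known to bind p53 messenger RNA, measured 10.16, 10.12 and 10.01 in celastrol mice, against 10.21, 10.21, 10.27 and 10.21 in DMSO mice. It was the only member whose celastrol mice all lay below the DMSO mice, at -0.12 (SE 0.056), with an adjusted p of 1.00.

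**Figure D1:**
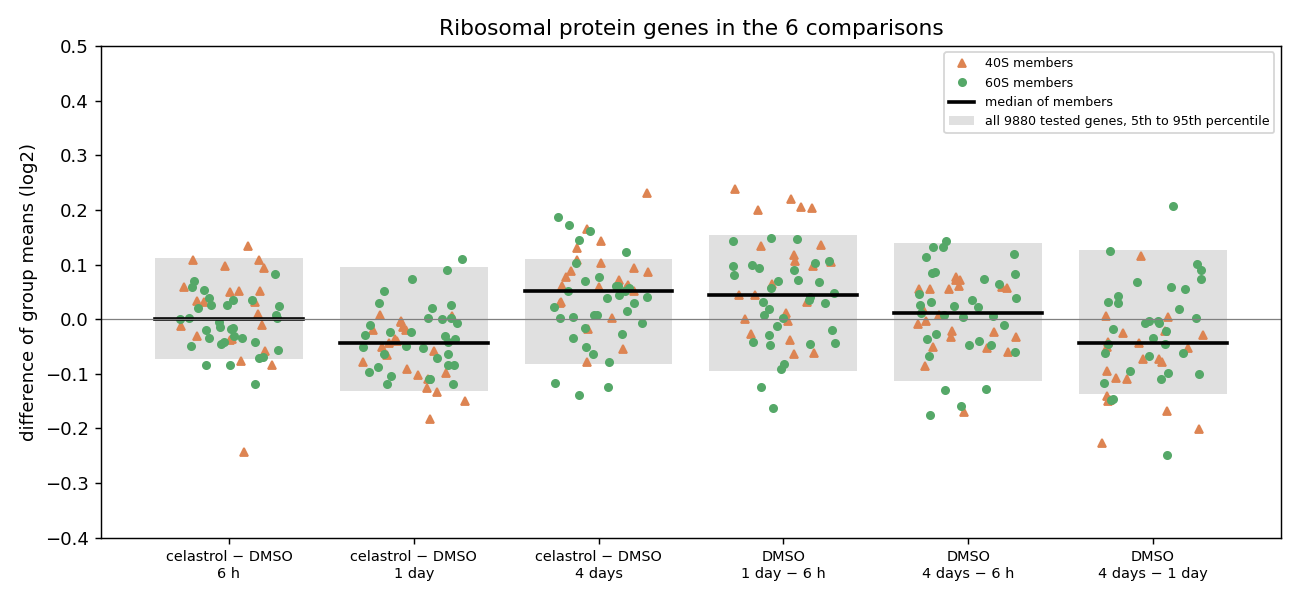
Difference of group means in log2 units (vertical axis) of each of the 55 tested ribosomal protein genes in the 6 comparisons (horizontal axis), with 40S members as triangles, 60S members as circles, the members' median as a black line and the 5th to 95th percentile of all 9880 tested genes as a grey band. The median lies at -0.044 at 1 day and 0.051 at 4 days of celastrol minus DMSO. The grey band shows the spread of single genes and gives no yardstick for a median of 55 genes.

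Averaged over the 3 times with equal weights, celastrol minus DMSO gave 0 called members, where 0.0607% of all genes were called, and 2 with an unadjusted p under 0.05, 3.64% against 4%. Above 0 were 28 of 55, 50.9% against 56.3%. Rpl26 was lowest, at -0.12 (SE 0.032, 95% interval -0.18 to -0.05), with an adjusted p of 0.464. Its differences at 6 h, 1 day and 4 days were -0.12, -0.10 and -0.12, and it has only 1 probe set here. Rpl7l1, a copy of Rpl7 that acts in ribosome assembly, was highest by p, at 0.06 with an adjusted p of 1.00. The 95% intervals of all 55 averaged differences lay within 0.25 log2 units of 0. At the single times this held for 51, 43 and 41 members at 6 h, 1 day and 4 days. The test that the celastrol effect differs between times called 0 members for 1 day against 6 h, 4 days against 6 h and 4 days against 1 day, as it called 0% of all genes in each. At an unadjusted p under 0.05 there were 5, 3 and 9 members, 9.09%, 5.45% and 16.4%, against 8.27%, 3.38% and 6% of all genes. The members' medians were -0.035, 0.033 and 0.095, against -0.036, -0.012 and 0.022 over all genes. Above 0 were 36.4%, 72.7% and 80% of members, against 33.7%, 43.3% and 60% of all genes. For Rpl23 the effect at 4 days minus that at 1 day was 0.27 (SE 0.071), with an adjusted p of 0.715.

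Among DMSO mice, 1 day minus 6 h gave 0 called members, where 0% of all genes were called. An unadjusted p under 0.05 was more common, at 14 of 55, or 25.5%, against 14.1% of all genes. The median was 0.045 log2, against 0.026 over all genes, and it was 0.024 without DMSO replicate 1 at 6 h, 0.078 without replicate 4 and 0.023 with each array centred on its median. Above 0 were 39 of 55, 70.9% against 64.4%, and in 5, or 9.09% against 5.98%, the groups did not overlap. The 40S members had a median of 0.081 and the 60S members 0.036. Rps4x, the X-linked 40S protein S4, measured 11.81, 11.60, 11.64 and 11.57 at 1 day, against 11.22, 11.46, 11.43 and 11.56 at 6 h. The groups did not overlap, by a narrow margin, and the difference of 0.24 (SE 0.060) had an adjusted p of 0.104. Its 5 probe sets ran from 0.22 to 0.24. Rps3 measured 11.31, 11.09, 11.09 and 11.13 at 1 day, against 10.86, 10.97, 10.98 and 10.995 at 6 h, a difference of 0.20 with an adjusted p of 0.151. Rps9 differed by 0.22 with an adjusted p of 0.184, while its second probe set gave 0.07. Rpl10a, a 60S protein of the L1 stalk, had a lower mean at 1 day. It measured 12.74, 12.64, 12.66 and 12.69 at 1 day, against 12.88, 12.85, 12.85 and 12.81 at 6 h, without overlap. The difference of -0.16 (SE 0.041) had an adjusted p of 0.104, and its 4 probe sets ran from -0.16 to -0.13.

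DMSO 4 days minus 6 h gave 0 called members, where 0.253% of all genes were called, and 7 with an unadjusted p under 0.05, 12.7% against 15.3%. Above 0 were 32 of 55, 58.2% against 66.1%, and in 5, or 9.09% against 7.56%, the groups did not overlap. Rpl10 measured 13.75, 13.76, 13.75 and 13.73 at 4 days, against 13.55, 13.65, 13.66 and 13.61 at 6 h. The groups did not overlap, and the difference of 0.13 (SE 0.036) had an adjusted p of 0.123. Rpl23 differed by -0.18 (SE 0.047), with an adjusted p of 0.113.

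DMSO 4 days minus 1 day held the single called member. Rpl23 fell, and 0.152% of all genes were called. It measured 11.70, 11.65, 11.67 and 11.66 at 4 days, against 12.004, 11.83, 11.90 and 11.93 at 1 day. All 4 mice at 4 days lay below all 4 at 1 day, at 11.67 ± 0.02 against 11.92 ± 0.07 (SD, n = 4 each). The difference was -0.25 log2 (SE 0.047, 95% interval -0.34 to -0.15), a 1.19-fold lower level, with an adjusted p of 0.0332 in limma. An exact two-sided permutation test gave p = 0.0286, the smallest that 4 against 4 mice allow. The call did not hold without DMSO replicate 1, 3 or 4 at 1 day, where the adjusted p was 0.127, 0.068 and 0.064, nor without any one of the 4 mice at 4 days, where it was 0.065 to 0.114. The second Rpl23 probe set differed by -0.21, with an adjusted p of 0.0976 when all 12261 probe sets were tested on their own. Its mean of 8.67 was near the array medians. The same DMSO mice at 4 days enter the celastrol comparison of that time, where Rpl23 was 0.16 higher. Celastrol mice measured 11.83 ± 0.04, 11.81 ± 0.04 and 11.83 ± 0.02 (SD, n = 4, 3 and 3) at 6 h, 1 day and 4 days.

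Rpl29 lay just outside the threshold in the same comparison. It measured 11.57, 11.56, 11.48 and 11.45 at 4 days, against 11.27, 11.31, 11.32 and 11.32 at 1 day, without overlap. The difference of 0.21 (SE 0.043) had an adjusted p of 0.0502. It passed 0.05 in several alternatives, with an adjusted p of 0.0291 when all probe sets were tested on their own and 0.026 with limma-trend. Rps3 followed at -0.23 with 0.104, and Rps4x differed by -0.17 with 0.197. In all, 16 of 55 members were above 0, 29.1% against 49.2% of all genes, and 7, or 12.7% against 9.8%, had groups that did not overlap. The members had a median of -0.043, or -0.028 without DMSO replicate 1 at 1 day, against -0.0016 over all genes, and 11 had an unadjusted p under 0.05, 20% against 14.7%. The 40S members had a median of -0.073 and the 60S members -0.0072. The DMSO comparisons share groups with each other and with the celastrol comparisons, so opposite signs between them are not separate observations.

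**Figure D2:**
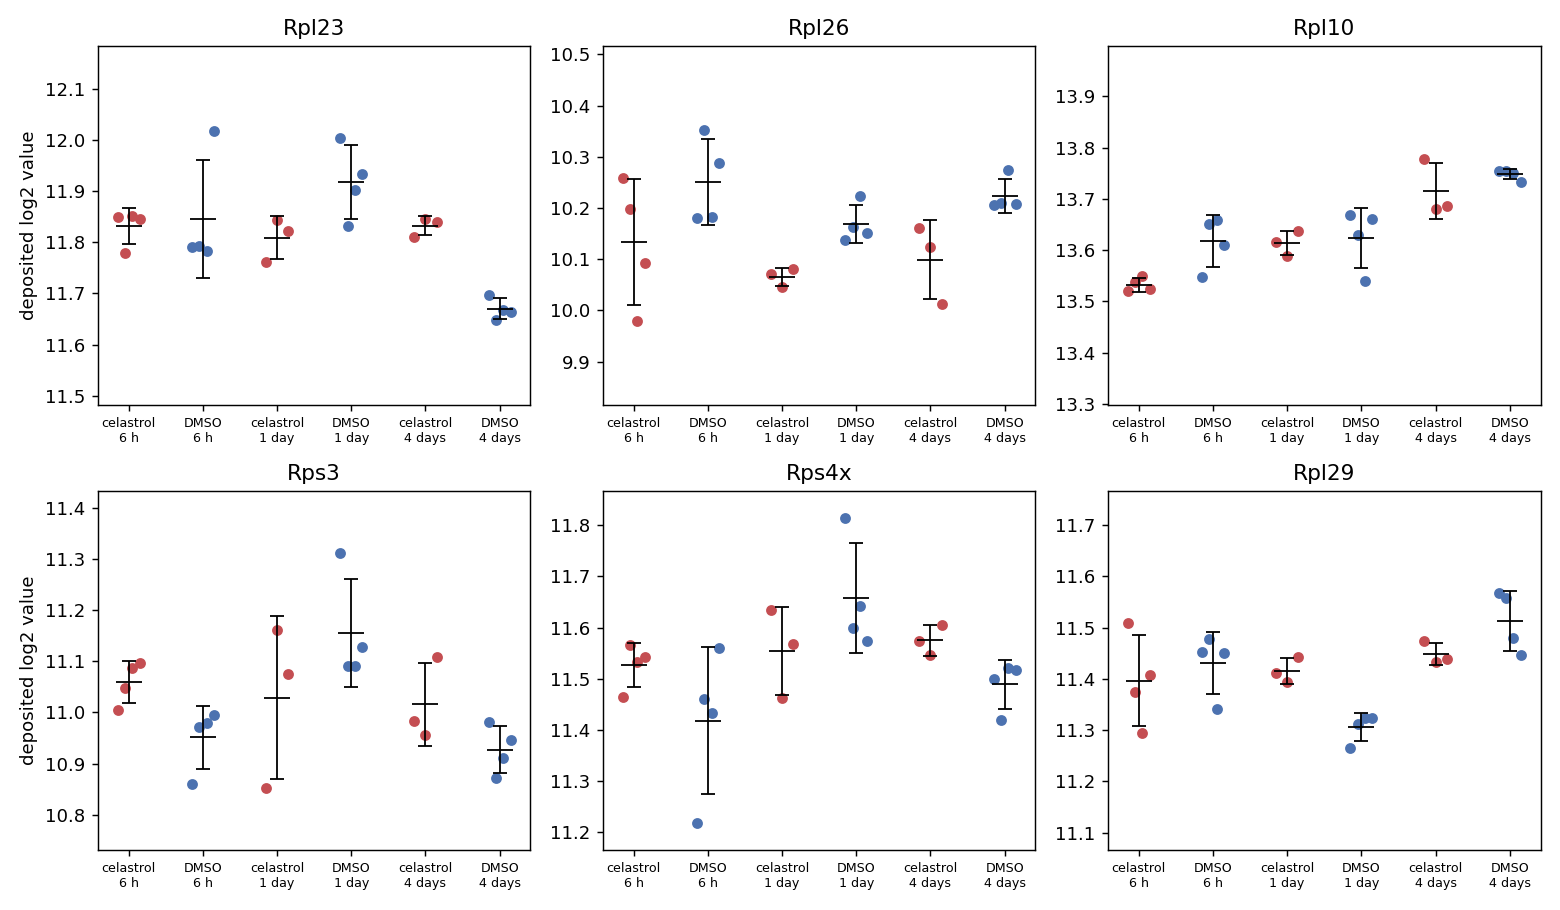
Deposited log2 values (vertical axes, each panel with its own range of equal height) of Rpl23, Rpl26, Rpl10, Rps3, Rps4x and Rpl29 in every mouse, by group (horizontal axes), celastrol in red and DMSO in blue, with the mean and SD as bars. The DMSO mice at 4 days are the lowest group for Rpl23, at 11.67, and for Rpl26 the celastrol mean lies below the DMSO mean at each time.

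Several probe sets per gene gave a check within the arrays. Residuals of different probe sets of the same gene correlated at a median r of 0.87 over 454 pairs, against 0.15 over 17882 pairs from different genes, described without a test since all share the 22 arrays. Rpl41, which encodes the smallest ribosomal protein, has 3 probe sets with identical values, and 18 of the 209 probe sets share their values with another. Of 37 genes with several tested probe sets, all probe sets had one sign in 34 for DMSO 1 day minus 6 h, in 31 for 4 days minus 6 h and in 27 for 4 days minus 1 day. For celastrol minus DMSO this held for 29, 23 and 27 at 6 h, 1 day and 4 days. Rpl41 is among the 37, and probe sets with identical values have one sign by construction. Rps25 ran from 0.11 to 0.22 over 6 probe sets for DMSO 1 day minus 6 h, whereas Rps15 ran from -0.23 to -0.06 over 3. Probe sets of a gene can also match its processed pseudogenes, which was not tested here.

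**Figure D3:**
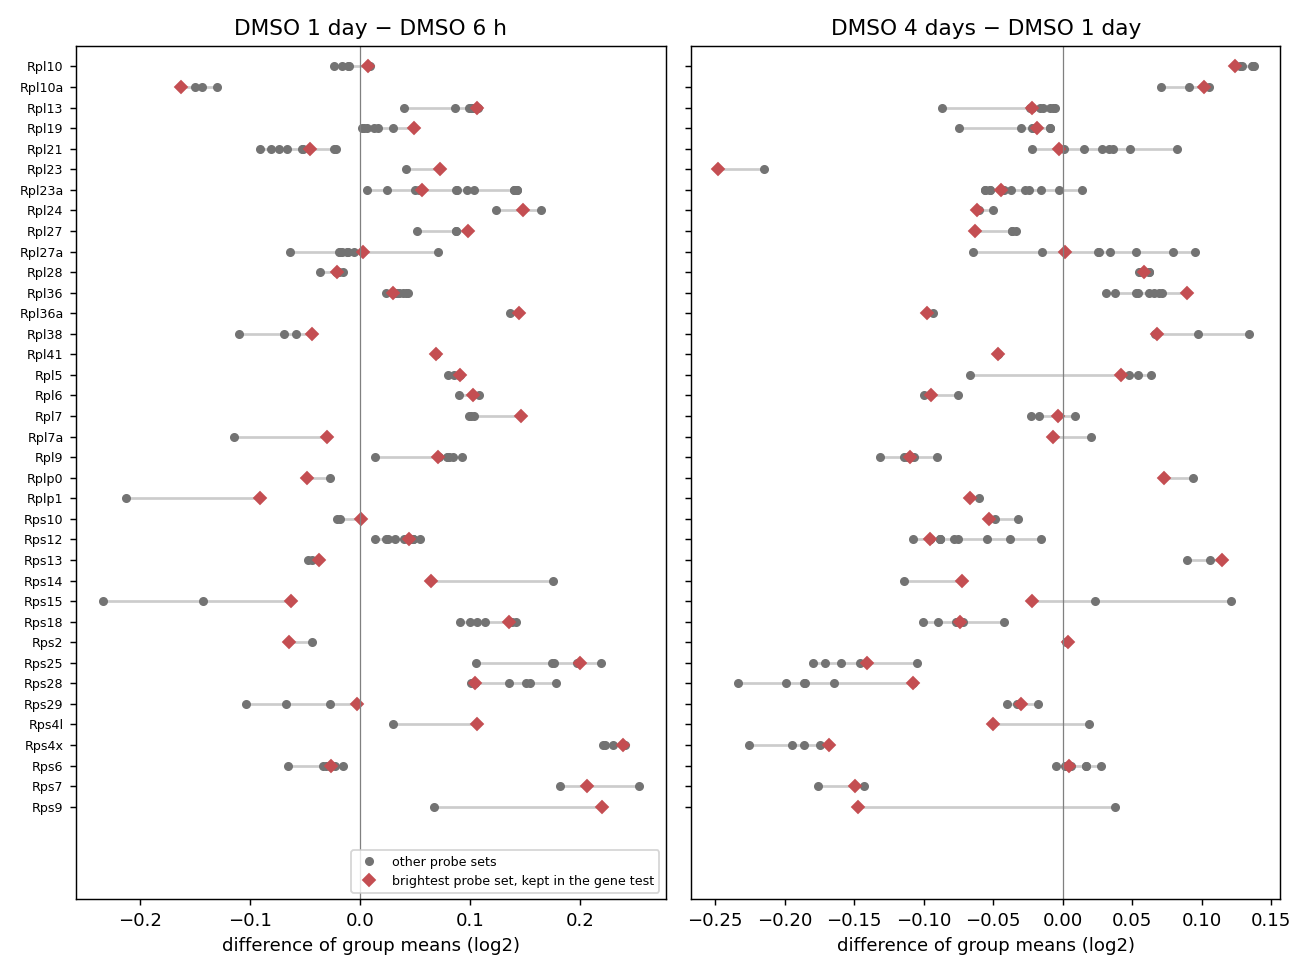
Difference of group means in log2 units (horizontal axes) for every tested probe set of the 37 genes with several, by gene (vertical axis), for DMSO 1 day minus 6 h and DMSO 4 days minus 1 day, with the probe set kept in the gene test as a red diamond. Both Rpl23 probe sets lie below 0 at 4 days minus 1 day, at -0.25 and -0.21, and the Rps4x probe sets sit close together at 0.22 to 0.24 in the left panel.

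Members varied together only loosely from mouse to mouse. After group means were removed, 1485 pairs of members had a median r of 0.12, and 9.83% of pairs exceeded 0.5. The same values over pairs of all tested genes were not computed, so the members cannot be set against other genes here. Rpl23 was most like Rpl6, with r = 0.70 over 22 arrays, then Rps28, with 0.68, and Rpl27, with 0.66, and least like Rpl14, with -0.67. The median deviation of the 55 members from their 22-array mean averaged -0.018 ± 0.015 in celastrol mice at 6 h and -0.023 ± 0.044 in DMSO mice at 6 h (SD, n = 4 each). At 1 day it was -0.015 ± 0.021 in celastrol mice (SD, n = 3) and 0.026 ± 0.026 in DMSO mice (SD, n = 4). At 4 days it was 0.039 ± 0.022 in celastrol mice (SD, n = 3) and -0.0092 ± 0.014 in DMSO mice (SD, n = 4), without overlap. DMSO replicate 1 at 6 h was the lowest of all arrays, at -0.080. For the 40S members DMSO replicate 1 at 1 day was the highest, at 0.11.

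Genes of the mitochondrial respiratory chain varied alongside. Over the 22 arrays, with group means removed, the members' array median correlated with that of 69 respiratory chain genes at r = 0.77 (Spearman's rho 0.69), and at 0.65 without the 2 farthest arrays. It correlated at 0.50 with 33 translation factors (rho 0.43), and at 0.33 without the 2 farthest arrays. It correlated at -0.57 with 10 oligodendrocyte markers (rho -0.59), and at -0.41 without the 2 farthest. Of all lists examined, these had the largest correlations of either sign. Pituitary markers gave 0.39, or -0.27 without the 2 farthest arrays. Mitochondrial ribosomal proteins gave 0.35 and ribosome assembly genes 0.34. Microglia markers gave 0.078, neuron markers 0.079 and astrocyte markers -0.010. These are descriptions across arrays normalised together. DMSO replicate 1 at 1 day was also the highest array for the respiratory chain genes, at 0.11. At 1 day, 7 of 69 respiratory chain genes were above 0 for celastrol minus DMSO, against 41.2% of all genes, with a median of -0.061. At 4 days 47 of 69 were, against 56.4% of all genes, with a median of 0.035. At either time 0 of them were called. At an unadjusted p under 0.05 there were 6 and 2, or 8.7% and 2.9%, against 6.66% and 3.66% of all genes. At 4 days, where the members' median was 0.051, all 7 tested microglia and macrophage markers of 10 measured were above 0 (P2ry12, Aif1 and Itgam were dim), with a median of 0.24, and Ctss, a lysosomal protease, was called at 0.40 with an adjusted p of 0.0493. Their level, as the mean log2 value of the 7, was 9.95 to 9.99 in celastrol mice and 9.64 to 9.80 in DMSO mice, and its part in the members' result was not tested. At 1 day 5 of these 7 were above 0, with a median of 0.014, where the members' median was -0.044. Other cell type lists lay slightly below 0 at 4 days, with 0 called. The medians were -0.015 for 12 neuron, -0.012 for 10 astrocyte and -0.023 for 10 oligodendrocyte markers. Of 7 tested endothelial markers of 8 measured (Kdr was dim), 1 was above 0 at 1 day, with a median of -0.10. At 4 days 5 were, with a median of 0.037, and 0 were called at either time. An unadjusted p under 0.05 was found for 3 and 2 of the 7 endothelial markers, or 42.9% and 28.6%, against 6.66% and 3.66% of all genes. Their mean log2 value was 9.36 to 9.50 in celastrol mice and 9.46 to 9.59 in DMSO mice at 1 day, and 9.54 to 9.60 in celastrol mice and 9.47 to 9.59 in DMSO mice at 4 days. Their array medians at 4 days were 0.078 to 0.11 in celastrol mice and -0.020 to 0.068 in DMSO mice, without overlap, and their part was not tested either.

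**Figure D4:**
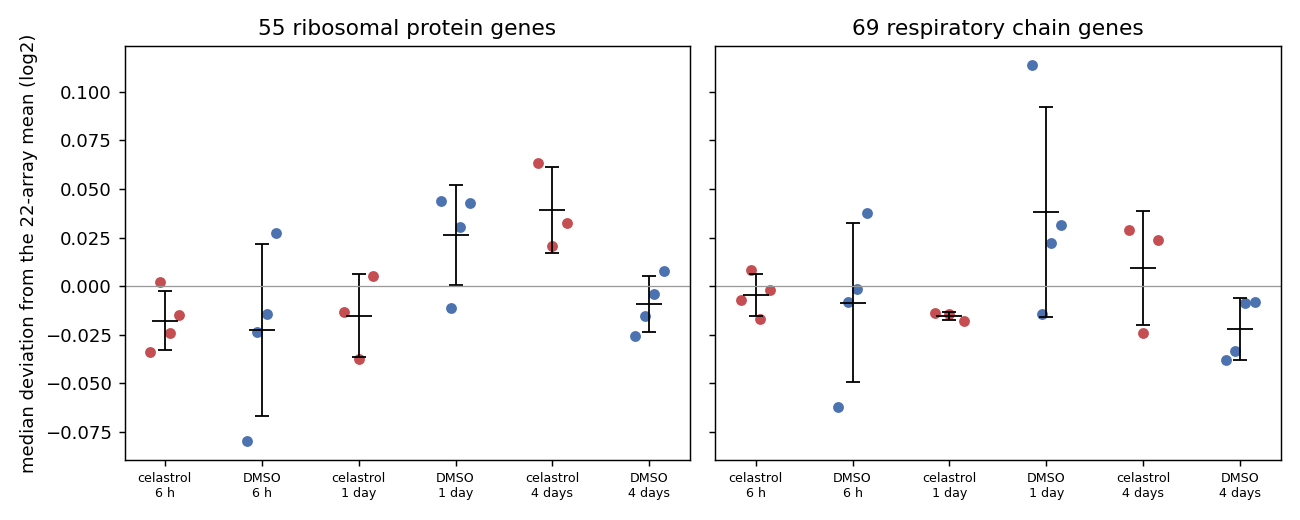
Median deviation from the 22-array mean in log2 units (vertical axis) of the 55 ribosomal protein genes and of 69 respiratory chain genes in each mouse, by group (horizontal axis), celastrol in red and DMSO in blue, with mean and SD as bars. For the ribosomal protein genes the celastrol mice at 4 days lie at 0.021 to 0.064 and the DMSO mice at 4 days at -0.025 to 0.0080.

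Other genes of the translation machinery are given beside the 0%, 0% and 0.0506% of all genes called with celastrol at 6 h, 1 day and 4 days in limma, so counts of 0 are at the background. An unadjusted p under 0.05 was found for 5.11%, 6.66% and 3.66% of all genes at these times. Of 33 tested translation factors, 0 were called at 6 h, 1 day or 4 days, with medians of 0.046, -0.033 and 0.017 log2. Among them 3, 2 and 1 had an unadjusted p under 0.05, or 9.09%, 6.06% and 3.03%. Of 39 tested ribosome assembly genes, 0 were called, with medians of 0.015, -0.058 and 0.013. Among them 1, 5 and 1 had an unadjusted p under 0.05, or 2.56%, 12.8% and 2.56%. Of 65 tested mitochondrial ribosomal protein genes, 0 were called, with medians of 0.029, -0.042 and 0.020. Among them 5, 11 and 0 had an unadjusted p under 0.05, or 7.69%, 16.9% and 0%. Between DMSO times, 1 translation factor list member was called, Tpt1, which encodes the protein TCTP, lower at 4 days than at 6 h by -0.19 with an adjusted p of 0.0453, where 0.253% of all genes were called.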

How the data were processed

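Affymetrix whole-transcript arrays measured hypothalamic RNA of 22 mice. The authors deposited log2 values made with RMA, per the submitters' processing notes. Values ran from 3.83 to 15.2, with 0 columns of other series. RMA quantile-normalizes the arrays, so a shift common to all genes cannot be seen. Symbols came from the platform annotation, and all 60 members matched RefSeq by Entrez ID.

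Per gene the probe set with the highest mean was kept. Genes exceeding the median of the array in 3 or more arrays were tested in limma 3.58.1 (R 4.3.3) with 6 group means, empirical Bayes and Benjamini-Hochberg adjustment over all 9880 genes. Single members were also compared by exact permutation tests (scipy 1.17.1). The model was tested on simulated data for celastrol minus DMSO at 4 days, with noise drawn independently for each gene. It recovered 62.8% of changes of 0.25 log2, with 6.5% of calls false. Of changes of 0.5 log2 it recovered 97.7%, with 3.8% of calls false. Many genes were changed at once, 600 for each size over all runs, and at 0.25 log2 403 genes passed. In the data 0.0506% of all genes passed at 4 days. The adjustment was therefore stricter in the data, and these shares do not describe a lone changed gene. The number of arrays limits the precision.

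Members and lists were chosen with earlier results of these data known. Members named are the called ones or, without any, those with the smallest p in each direction (3 each), the 5 with the largest and smallest residual SD, the 5 highest and lowest, members with several probe sets, and named copies. Lists used are respiratory chain, translation factors, ribosome assembly, mitochondrial ribosomal proteins, and oligodendrocyte, microglia, endothelial, neuron, astrocyte, pituitary and hypothalamic neuron markers. Alternatives covered filter, probe set choice, normalization, limma options, a replicate block, a residual component and left-out arrays.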

Additional observations from a re-analysis of the deposited data

Results flagged for a closer look

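In the 4 groups of 4 mice, 10 members and the members' array median gave 44 sets of values to examine, and 5 values stood apart from the rest of their group by Dixon's criterion, 11.4% where chance flags about 5%. The 44 sets share arrays and are not independent, so these shares do not measure an excess. A value can also be flagged by a small gap where the others lie close together. Rpl23 was low in celastrol replicate 2 at 6 h, at 11.78, with the others at 11.85. It was high in DMSO replicate 4 at 6 h, at 12.02, with the others at 11.78 to 11.79. Rps3 was high in DMSO replicate 1 at 1 day, at 11.31, with the others at 11.09 to 11.13. Rpl26 was high in DMSO replicate 3 at 4 days, at 10.27, with the others at 10.21, and Rps29 was high in the same mouse, at 10.83, with the others at 10.81.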

How the results depend on the processing

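In 35 alternatives, 22 of them leaving out 1 array, 0 members were called for celastrol minus DMSO at any time or for differences between times, and in 34 for its mean. Of 349 alternative counts, 322 equalled the count reported, and of 1289 alternative values of named members, 0 reversed. Most named changes were picked for a small p and refitted on nearly the same arrays, so kept signs carry little weight. The members' median took the other sign in 8 of 35 alternatives for celastrol minus DMSO at 6 h. It did so in 17 of 34 for the mean over times and in 3 of 35 for DMSO 4 days minus 6 h. For DMSO 4 days minus 1 day the count was 0 with no filter, with the compared groups alone and without the 2 least typical arrays. It was 2 with a filter of 11 arrays, the mean of probe sets, all probe sets, repeated quantile normalization, limma-trend and robust estimation, 3 with the residual component and 4 with array weights, and 0 to 2 leaving out 1 array. In each count of 2 the members were Rpl23 and Rpl29. For DMSO 4 days minus 6 h it was 1 with limma-trend, array weights and the residual component, and 0 to 1 leaving out 1 array. The members' median celastrol effect at 1 day minus 6 h was -0.035 as reported and -0.0055 after repeated quantile normalization. At 4 days minus 1 day it was 0.095 as reported, 0.064 with median centring, 0.053 with array weights, and 0.071 to 0.12 leaving out 1 array. For DMSO 1 day minus 6 h it was 0.024 to 0.078 leaving out 1 array. The cause was not tested. Replicate numbers were not taken as pairs. Of 10 same-number pairs at the same time, 2 correlated above 0.1, and the range was -0.24 to 0.41. Pairs with different numbers were not computed, so this cannot exclude that mice with one number share a block. With the replicate block, Rpl23 stayed called for DMSO 4 days minus 1 day (adjusted p 0.0399) as 1 member, and the block changed no other call of a member.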

Other observations

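Probe sets annotated with several symbols, at least 1 of them ribosomal, numbered 231, of which 224 passed the filter on level. Their median was -0.023 log2 for celastrol minus DMSO at 6 h and 1 day, with 64 and 70 of 224 above 0, and 0.0058 at 4 days, with 133 of 224 above 0. The members' medians at these times were -0.00020, -0.044 and 0.051, against 0.020, -0.014 and 0.0083 over all genes. For DMSO 1 day minus 6 h the median of these probe sets was -0.036, with 73 of 224 above 0, whereas that of the 55 members was 0.045. For DMSO 4 days minus 1 day it was 0.016, with 149 of 224 above 0. The members' median there was -0.043, with 16 of 55 above 0. For DMSO 4 days minus 6 h it was 0.0049 for these probe sets, with 116 of 224 above 0, and 0.012 for the members. Which of the listed genes each of these probe sets measured cannot be told apart.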
